A study of Homo sapiens with 2 samples.

Results

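The rows analysed here are the transcript clusters named as antisense RNAs, together with the genes they are named after. A row was taken when the platform annotation gave it a single gene symbol ending in -AS, with or without 1 digit after it, and its sense gene is the gene whose symbol stands before that ending. The rule found 801 such rows, with 770 symbols, among 23781 rows with 1 symbol and 70523 rows in all. For 722 of them a row of the sense gene was measured (628 sense genes, since several antisense RNAs can share 1), and 79 rows had no measured partner.

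Total RNA was measured on 2 Affymetrix Human Transcriptome Array 2.0 arrays. The first held RNA of cells labelled TDM-1 resistant, and T-DM1 is an antibody that binds the receptor HER2 joined to a microtubule poison. The second held RNA of the untreated parental line NCI-N87, an established line of gastric carcinoma cells in which the HER2 gene, ERBB2, is amplified. Drug dose, duration of selection, passage number, presence of drug at harvest and clonality of the resistant cells are not stated in the labels, which name no other allele or agent. Each group had 1 array, so there is no error or test and no difference could be set against the spread between cultures.

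Natural antisense RNAs are transcribed from the strand opposite to another gene. Some start close to the start of the sense gene and run away from it, some overlap its first exons, and others lie inside its introns or overlap its end. Individual antisense RNAs are known to silence their partner, to stabilise its messenger RNA or to act on other genes, and for most no function is known. An antisense name records position and says nothing about what the RNA does. The labelling chemistry used here keeps the strand, so an antisense row and its sense gene are read by probes for opposite strands. How completely the signals of overlapping partners were kept apart was not tested.

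Printed here are 6 windows around annotated start sites, because the results below describe these genes. They are a pair that starts head to head and was higher on the resistant array, and 4 antisense RNAs that were lower. No window was available for AFAP1-AS1, which had the largest difference, or for SH3PXD2A-AS1, BACE1-AS and DGUOK-AS1. Each window runs from 250 bases before to 50 bases after the RefSeq start (GRCh38.p14), 5′ to 3′ on the gene's own strand. Capitals mark matches, on either strand, to the letters TATAAA of the TATA box, to those of the CCAAT box and to the letters GGGCGG of the GC box. The SRP54-AS1 window is chr14:34982517-34982816 on the minus strand and that of its sense gene SRP54 is chr14:34982742-34983041 on the plus strand. The TRHDE-AS1 window is chr12:72273460-72273759 (minus strand), the GABPB1-AS1 window chr15:50353924-50354223 (plus), the LENG8-AS1 window chr19:54448989-54449288 (minus) and the CLDN10-AS1 window chr13:95533861-95534160 (minus).
SRP54-AS1: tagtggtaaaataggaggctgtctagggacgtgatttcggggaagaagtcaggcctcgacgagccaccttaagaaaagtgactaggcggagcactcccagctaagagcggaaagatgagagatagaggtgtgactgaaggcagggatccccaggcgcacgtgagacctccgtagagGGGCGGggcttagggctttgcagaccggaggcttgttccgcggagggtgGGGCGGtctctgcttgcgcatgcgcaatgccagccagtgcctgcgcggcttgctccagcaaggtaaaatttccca
SRP54: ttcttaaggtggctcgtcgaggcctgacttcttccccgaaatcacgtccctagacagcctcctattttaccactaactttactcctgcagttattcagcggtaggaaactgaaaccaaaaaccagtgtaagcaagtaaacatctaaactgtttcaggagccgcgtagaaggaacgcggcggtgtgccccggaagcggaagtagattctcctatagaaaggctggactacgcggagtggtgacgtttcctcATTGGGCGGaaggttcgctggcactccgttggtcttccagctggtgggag
TRHDE-AS1: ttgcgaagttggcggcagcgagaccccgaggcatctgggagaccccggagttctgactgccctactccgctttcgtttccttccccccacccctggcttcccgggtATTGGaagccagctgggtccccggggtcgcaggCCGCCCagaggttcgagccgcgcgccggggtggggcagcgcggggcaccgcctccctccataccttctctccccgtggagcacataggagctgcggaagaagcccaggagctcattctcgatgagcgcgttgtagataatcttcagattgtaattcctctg
GABPB1-AS1: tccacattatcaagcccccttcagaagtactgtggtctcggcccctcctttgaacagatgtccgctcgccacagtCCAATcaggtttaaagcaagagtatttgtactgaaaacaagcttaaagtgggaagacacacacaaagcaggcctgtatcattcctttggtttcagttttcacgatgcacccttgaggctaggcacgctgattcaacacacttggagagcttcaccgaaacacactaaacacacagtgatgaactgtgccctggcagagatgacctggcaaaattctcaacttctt
LENG8-AS1: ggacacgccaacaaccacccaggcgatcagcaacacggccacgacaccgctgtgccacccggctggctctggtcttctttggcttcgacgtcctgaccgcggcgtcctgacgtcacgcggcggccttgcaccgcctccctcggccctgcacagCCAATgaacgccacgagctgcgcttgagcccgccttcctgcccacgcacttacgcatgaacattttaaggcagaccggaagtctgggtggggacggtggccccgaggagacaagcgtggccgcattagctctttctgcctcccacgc
CLDN10-AS1: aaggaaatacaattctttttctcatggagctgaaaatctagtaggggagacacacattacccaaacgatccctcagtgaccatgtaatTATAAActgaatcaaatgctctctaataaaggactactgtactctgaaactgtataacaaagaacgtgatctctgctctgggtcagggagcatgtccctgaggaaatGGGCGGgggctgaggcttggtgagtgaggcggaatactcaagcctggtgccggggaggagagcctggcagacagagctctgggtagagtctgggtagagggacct

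The starts of SRP54-AS1 and SRP54 lie 426 bases apart and point away from each other, and their windows share 75 bases. The SRP54-AS1 window holds GGGCGG at 2 places, while the capital run in the SRP54 window is a reverse-strand CCAAT that overlaps GGGCGG. Among all 35116 windows of this length, 11.5% hold the TATA box letters, 34.6% those of the CCAAT box and 45.0% those of the GC box. A match is a description of these letters and not a binding site or a cause.

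The arrays themselves were alike in scale, with a median deposited value of 4.76 on both. Of the gastric epithelial markers, 9 of 10 were measured here, and ERBB2 itself had no value among them. Of the 9, 8 were at or above the floor defined in the next paragraph, TFF1 being the exception. The 9 had summed values of 114.8 on the resistant and 111.8 on the parental array. Without MUC1, a mucin at 9.90 on the resistant and 5.54 on the parental array, the sums were 104.9 on the resistant and 106.2 on the parental array, and CDH1 (E-cadherin) differed by -1.10. Of 13 markers of leukocytes, fibroblasts and endothelium, 11 were measured and 1 reached that floor: LYZ, a lysozyme also made by epithelial glands, at 7.91 on the resistant and 6.38 on the parental array. The sums of the 11 were 50.9 on the resistant and 49.6 on the parental array, with PTPRC and VIM under the floor on both. The part of other cell types in the differences below was not tested beyond these values.

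Each difference is the deposited log2 value on the resistant array minus that on the parental array. A row is called higher or lower when its difference is at least 1, which is 2-fold, and its higher value reaches a floor of 5.79, the median of the higher values over 22411 genes. On this scale most antisense rows were dim. The median of their higher values was 4.50, and 111 of 801 (13.9%) reached the floor, against 17.4% of 1316 rows of other long noncoding RNAs and 56.6% of protein-coding rows. The other 690 rows were under the floor, which is a median of these data and not a measured background level. Without a detection call, their values could not be told from background.

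Of the 801 antisense rows, 2 were called higher and 13 lower in the resistant cells, which is 1.87%. Over all rows with 1 symbol, 9.27% were called, 4.86% higher and 4.41% lower. Among rows that reached the floor, 13.5% of the antisense rows and 18.7% of all rows were called. The antisense calls lay mostly on 1 side (2 higher and 13 lower), while the calls over all rows at or above the floor were 9.8% higher and 8.89% lower. At a 1.5-fold threshold 8 antisense rows were higher and 27 lower, beside 18.5% of all rows called, and at a 4-fold threshold 1 was higher and 1 lower, beside 2.14% of all rows. Other long noncoding RNAs had 7 rows called higher and 32 lower. The row just outside the size rule on the lower side was TSPEAR-AS2 at -0.95, and ABCA9-AS1 at 0.94 on the higher side. SYNPR-AS1 (5.77 on the resistant and 4.32 on the parental array) and COCH-AS1 (5.53 resistant, 4.43 parental) differed by more than 1 but stayed under the floor.

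**Figure D1:**
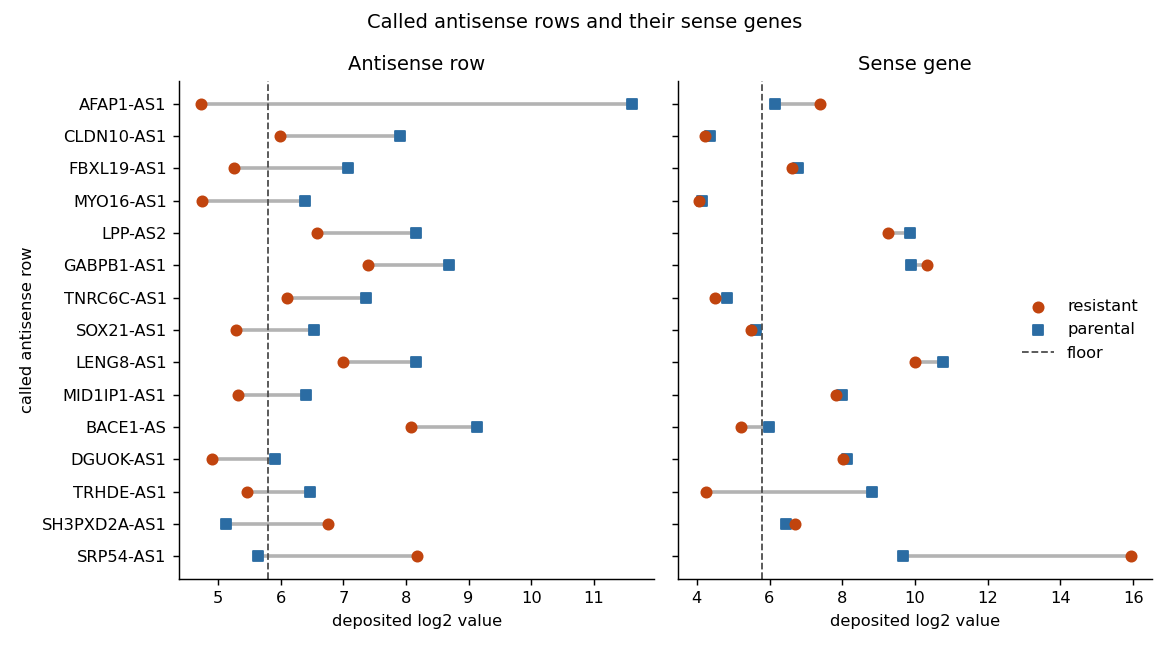
Deposited log2 values of the 15 called antisense rows (left panel) and of their sense genes (right panel), with 1 circle for the resistant and 1 square for the parental array and a dashed line at the floor of 5.79. AFAP1-AS1 spans the widest gap, 4.72 on the resistant and 11.6 on the parental array, and SRP54 and TRHDE are the sense genes that moved furthest.

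AFAP1-AS1, a long noncoding RNA studied in several carcinomas, was 4.72 on the resistant array and 11.6 on the parental array, a difference of -6.89. Measured against the floor this is at least 56.7-fold lower. Its sense gene AFAP1, which encodes an actin filament-binding adaptor of SRC, was 7.39 on the resistant and 6.15 on the parental array, a difference of 1.23. The members of this pair were thus both called and in opposite directions, and no other pair was.

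TRHDE-AS1 was 5.47 on the resistant and 6.47 on the parental array, at least 1.60-fold lower, and its difference of -1.003 lies on the edge of the size rule. TRHDE, which encodes the membrane peptidase that breaks down thyrotropin-releasing hormone, was 4.26 on the resistant and 8.82 on the parental array, at least 8.17-fold lower. SRP54-AS1 was 8.18 on the resistant and 5.63 on the parental array, at least 5.25-fold higher. SRP54, the subunit of the signal recognition particle that binds signal peptides, was 15.9 on the resistant and 9.66 on the parental array, a difference of 6.28. These are the 2 pairs called the same way. In both the partners start within 2 kb of each other on opposite strands, and in both the sense gene's difference was the larger one. TRHDE-AS1 missed the threshold, and its pair the call, with quantile normalization (-0.95), with loess centring and after subtraction of chromosome medians (-0.96), where another pair, STEAP2 with STEAP2-AS1, was lower on both sides.

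Some antisense RNAs were lower while their measured sense gene differed by less than the size rule. FBXL19-AS1 was 5.25 on the resistant and 7.07 on the parental array, at least 2.42-fold lower, while FBXL19, a ubiquitin ligase subunit that binds CpG islands, was 6.61 on the resistant and 6.79 on the parental array. GABPB1-AS1 was 7.40 on the resistant and 8.69 on the parental array. GABPB1, a subunit of the transcription factor GABP that acts on genes of mitochondrial respiration, was 10.3 on the resistant and 9.90 on the parental array. The GABPB1 pair therefore differed in opposite directions, with only the antisense row past the rule.

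LPP-AS2 was 6.57 on the resistant and 8.16 on the parental array, and LPP, a LIM protein of focal adhesions, 9.27 on the resistant and 9.87 on the parental array. LENG8-AS1 was 6.99 on the resistant and 8.16 on the parental array, beside LENG8 at 9.99 on the resistant and 10.8 on the parental array. BACE1-AS, which is known to stabilise the messenger RNA of the beta-secretase BACE1, was 8.08 on the resistant and 9.13 on the parental array, with BACE1 at 5.23 on the resistant and 5.98 on the parental array. In these 3 pairs the sense gene had a difference of the same sign, -0.60 for LPP, -0.77 for LENG8 and -0.75 for BACE1.

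MID1IP1-AS1 was 5.31 on the resistant and 6.399 on the parental array, at least 1.53-fold lower, next to MID1IP1, a regulator of fatty acid synthesis, at 7.82 on the resistant and 7.98 on the parental array. DGUOK-AS1 was 4.91 on the resistant and 5.91 on the parental array, at least 1.09-fold lower, with the mitochondrial deoxyguanosine kinase gene DGUOK at 8.02 on the resistant and 8.14 on the parental array. Both bounds are small because the parental value lies close to the floor. The difference of DGUOK-AS1, -1.005, became -0.98 with quantile normalization and after subtraction of chromosome medians, so its call was lost under both. The row named TNRC6C-AS1 was 6.10 on the resistant and 7.36 on the parental array, beside TNRC6C under the floor on both arrays. The current gene table gives that row the name TMC6, a protein-coding gene, so it is a member by its older platform name.

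Of the 13 lower rows, 3 lie on chromosome 13, where coding genes as a whole were lower. CLDN10-AS1, inside the claudin gene CLDN10, was 5.98 on the resistant and 7.91 on the parental array, and it differed by -0.84 after the median difference of coding genes on its chromosome was subtracted. MYO16-AS1, inside an unconventional myosin gene, was 4.74 on the resistant and 6.38 on the parental array (at least 1.51-fold lower, -0.55 after that subtraction). SOX21-AS1 was 5.28 on the resistant and 6.54 on the parental array (at least 1.68-fold lower, -0.16 after subtraction). None of these 3 kept its call after subtraction, and the sense genes CLDN10, MYO16 and SOX21, the last a transcription factor of epithelial and neural progenitors, were under the floor on both arrays.

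The other row called higher was SH3PXD2A-AS1, at 6.75 on the resistant and 5.12 on the parental array, at least 1.95-fold higher. SH3PXD2A, which encodes the invadopodium scaffold TKS5, was 6.71 on the resistant and 6.45 on the parental array. The pair had the same sign, and the sense gene's difference of 0.26 was under the rule.

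**Figure D2:**
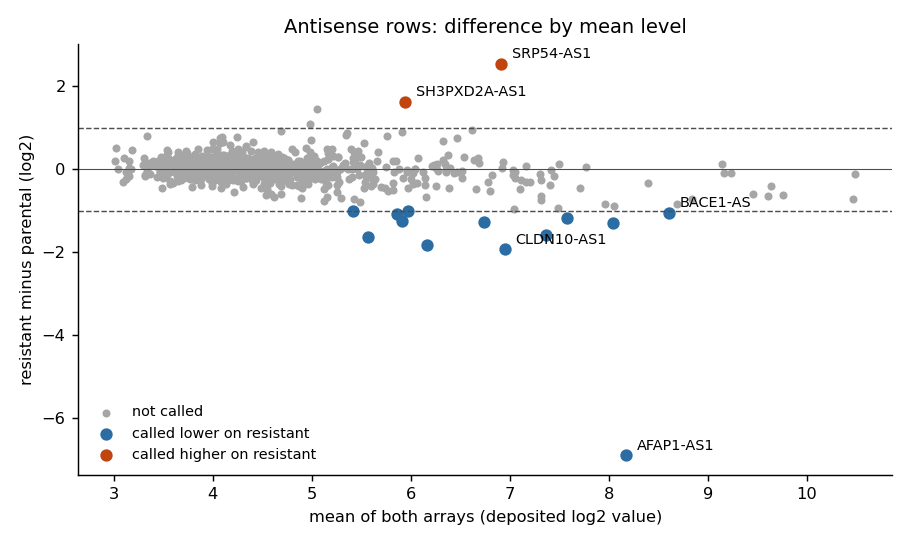
Difference (resistant minus parental, log2) of each of the 801 antisense rows against its mean deposited log2 value over both arrays; dashed lines mark differences of 1 and -1. Rows called lower and higher are coloured, and the points to the right of a mean of 7 lie mostly below 0.

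The antisense rows that reached the floor leaned to lower values on the resistant array. Over all 801 rows the median difference was 0.00 (quartiles -0.15 and 0.16), beside 0.03 over all rows with 1 symbol. Over the 111 rows at or above the floor it was -0.20 (quartiles -0.52 and 0.04), and 78 were negative and 33 positive. The share of negative rows was 70.3% here, against 56.3% of the other long noncoding RNA rows, 47.1% of the protein-coding rows and 48.1% of all rows above the same floor. Most of these differences were small, since 74 of the 111 were under 0.5 in size.

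The lean sat in the brighter rows. Of 40 antisense rows with a mean value of 7 or more, a level chosen after the values were seen, 36 were negative (90%), with a median of -0.39 (quartiles -0.77 and -0.12). Of the other long noncoding RNA rows at that level 45 of 79 were negative, and of the protein-coding rows 48.5%. Of the 71 antisense rows that reached the floor with a mean under 7, 42 were negative and 29 positive. The 4 positive rows at the higher level were TMEM9B-AS1 at 0.13, DLG3-AS1 at 0.12, MAPKAPK5-AS1 at 0.07 and CCDC28A-AS1 at 0.05. Thus no antisense row with a mean of 7 or more was higher by as much as 0.5, and without chromosome 13 the count was 34 of 38.

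**Figure D3:**
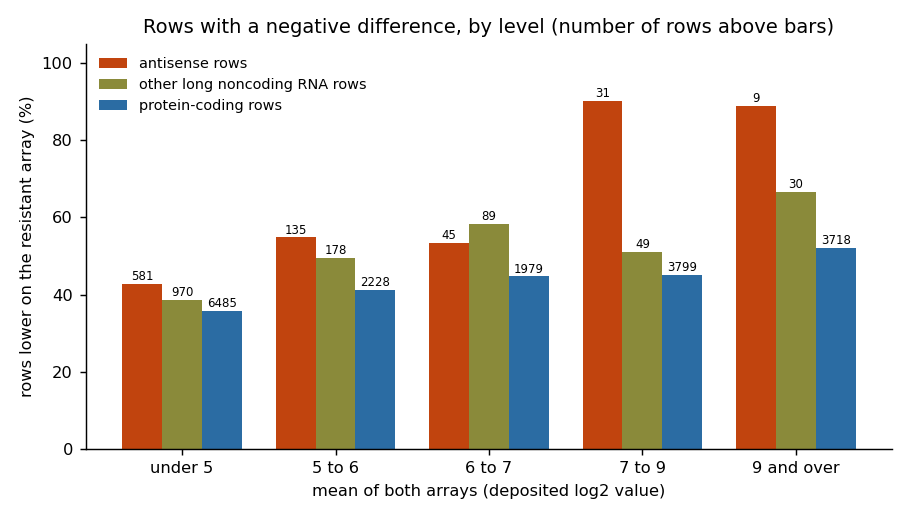
Share of rows with a lower value on the resistant array (percent), by mean deposited log2 value, for antisense, other long noncoding RNA and protein-coding rows; the number of rows stands above each bar. In the bin from 7 to 9, 28 of 31 antisense rows were lower, a share of 90.3%, against 51.0% of other long noncoding RNA rows and 45.0% of protein-coding rows.

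Among these brighter rows, OIP5-AS1 (Cyrano), which binds microRNA miR-7, was 10.4 on the resistant and 10.5 on the parental array, nearly the same. DLGAP1-AS1 was 9.28 on the resistant and 9.93 on the parental array, and PRRT3-AS1 was 9.45 on the resistant and 10.06 on the parental array. EPB41L4A-AS1, a host of small nucleolar RNA, was 8.26 on the resistant and 9.11 on the parental array. KRT10-AS1 was 7.61 on the resistant and 8.49 on the parental array, and RAB11B-AS1 was 6.95 on the resistant and 7.69 on the parental array. These differences run from -0.61 to -0.88, apart from OIP5-AS1 at -0.11, and none passes the size rule. The rows named HNRNPU-AS1 (9.16 resistant, 9.75 parental) and FAM83H-AS1 (10.1 resistant, 10.8 parental) carry other names in the current gene table, HNRNPU and IQANK1, and both of those are protein-coding. All of these rows except OIP5-AS1 and DLGAP1-AS1 were named after their values were seen.

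Sense genes were called about as often as coding genes in general. Of 628 sense genes, 44 were higher and 40 lower on the resistant array (13.4%), and 11.4% of all 17154 protein-coding genes were called (6.01% higher and 5.39% lower). Because some genes have several antisense RNAs, these are 44 pairs with a higher and 44 with a lower sense gene. In 75 of the 88 the antisense row was under the floor, and 7 of those 75 antisense rows differed by 0.5 or more. The signs nevertheless leaned with the sense gene. Where the sense gene was higher, 28 antisense rows were positive and 15 negative (median 0.10). Where it was lower, 8 were positive and 36 negative (median -0.15). Where it was not called, 316 were positive and 296 negative. Outside chromosome 13 the counts were 28 positive of 42 beside a higher and 21 negative of 26 beside a lower sense gene. Signs of rows under the floor rest on small differences, and pairs that share a gene are not independent.

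In several pairs a large difference of the sense gene came without a matching one of the antisense row. A2ML1, a protease inhibitor of stratified epithelium, was 4.68 on the resistant and 12.1 on the parental array, at least 81.6-fold lower, beside A2ML1-AS1 at 4.24 on the resistant and 4.12 on the parental array. HAS2, a hyaluronan synthase, was 4.84 on the resistant and 9.98 on the parental array, with HAS2-AS1 at 4.90 on the resistant and 4.99 on the parental array. SCEL, the cornified envelope precursor sciellin, was 9.24 on the resistant and 13.1 on the parental array, with SCEL-AS1 at 4.34 on the resistant and 4.16 on the parental array. All 3 antisense rows were under the floor on both arrays, so these pairs say nothing on whether the partners moved together. These pairs and those of the next paragraph were named after their values were seen.

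The same held for many higher sense genes. EGFR, the receptor of epidermal growth factor, was 11.9 on the resistant and 10.3 on the parental array, and EGFR-AS1 was 4.15 on the resistant and 3.94 on the parental array. MTOR, the kinase at the centre of nutrient signalling, was 10.4 on the resistant and 8.56 on the parental array, and MTOR-AS1 was 4.21 on the resistant and 4.37 on the parental array. KIF23, a kinesin of the central spindle, was 13.1 on the resistant and 10.9 on the parental array, and KIF23-AS1 was 5.16 on the resistant and 5.14 on the parental array. For some higher sense genes the dim antisense row had a larger positive difference, without passing the rule. PCNA, the sliding clamp of DNA replication, was 10.6 on the resistant and 8.42 on the parental array, and PCNA-AS1 was 5.76 on the resistant and 4.92 on the parental array. TM4SF1, a tetraspanin-like membrane protein, differed by 1.35 and TM4SF1-AS1 by 0.87, and HLTF, a DNA translocase of replication forks, differed by 2.54 and HLTF-AS1 by 0.81. Each of these 3 antisense rows stayed just under or well under the floor on the resistant array.

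In 13 pairs with a called sense gene the antisense row reached the floor, and 3 of these, described already, were called on both sides. The others were named after their values were seen, unless they stand on a list described further on. P3H2, a collagen prolyl hydroxylase, was 9.08 on the resistant and 5.32 on the parental array, at least 9.79-fold higher, while its antisense row LEPREL1-AS1 was 6.29 on the resistant and 6.18 on the parental array. RNF157, a ubiquitin ligase, was 8.27 on the resistant and 5.05 on the parental array, at least 5.59-fold higher, and RNF157-AS1 was 5.92 on the resistant and 5.99 on the parental array. These antisense rows were near level beside sense genes that were several-fold higher. PSMA3, an alpha subunit of the proteasome, was 11.4 on the resistant and 10.1 on the parental array, whereas PSMA3-AS1 was 8.48 on the resistant and 9.19 on the parental array. MAP3K14, the kinase NIK of the alternative NF-kB pathway, differed by 1.21 and MAP3K14-AS1 by -0.44. Those pairs differed in opposite directions, with the sense gene past the rule.

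SBF2-AS1 was 6.67 on the resistant and 5.98 on the parental array, beside SBF2, a catalytically inactive relative of the myotubularin phosphatases, at 9.95 on the resistant and 8.52 on the parental array. TMPO-AS1 was 6.44 on the resistant and 6.22 on the parental array, beside the nuclear lamina gene TMPO at 12.04 on the resistant and 10.9 on the parental array. TPT1-AS1 was 7.54 on the resistant and 8.38 on the parental array, beside TPT1, the translationally controlled tumour protein, at 12.4 on the resistant and 13.8 on the parental array. In each of these 3 pairs the partners had the same sign. CDKN2B-AS1 (ANRIL), which is known to bind Polycomb proteins at the CDKN2A and CDKN2B locus, was 5.48 on the resistant and 5.91 on the parental array, with the CDK inhibitor gene CDKN2B at 7.62 on the resistant and 8.74 on the parental array. LOXL1-AS1 was 6.41 on the resistant and 6.89 on the parental array, with the lysyl oxidase gene LOXL1 at 6.91 on the resistant and 8.19 on the parental array. SUCLA2-AS1 was 6.32 on the resistant and 6.39 on the parental array, with SUCLA2, a subunit of succinyl-CoA synthetase, at 7.93 on the resistant and 9.39 on the parental array. Among these 13 pairs, the antisense difference was positive in 4 and negative in 4 of those with a higher sense gene (median 0.02), and negative in all 5 of those with a lower one, TRHDE included. Of those 5, TPT1 and SUCLA2 lie on chromosome 13, and 70.3% of all antisense rows at or above the floor were negative.

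**Figure D4:**
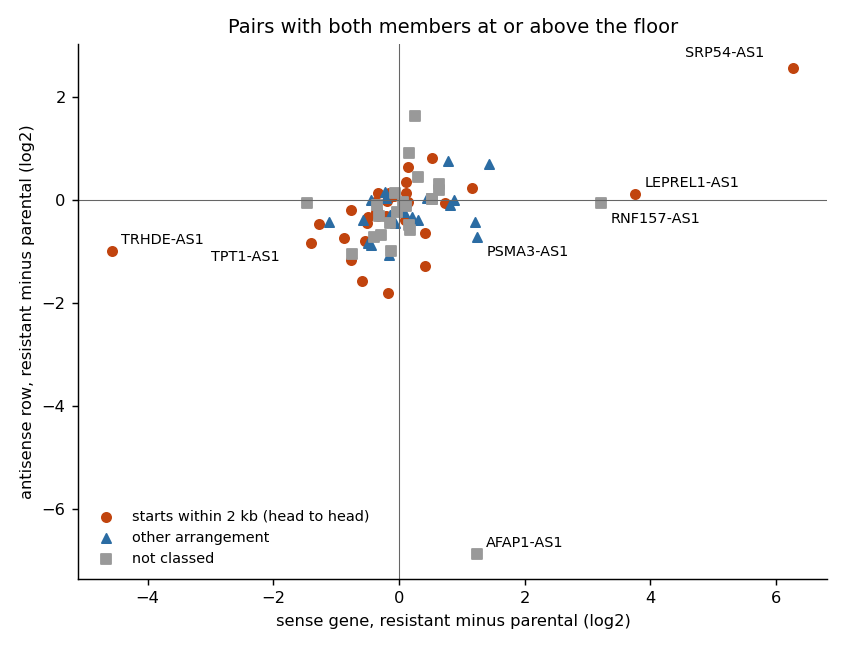
Difference of the antisense row against that of its sense gene (both resistant minus parental, log2) for the 77 pairs in which both reach the floor. Circles mark partners that start within 2 kb on opposite strands, triangles other arrangements and squares pairs not classed by position. Pairs were not classed where a RefSeq start was missing, or where the row's current name is a protein-coding gene or the sense gene itself. SRP54-AS1 and TRHDE-AS1 lie on the side of their sense genes and AFAP1-AS1 at the bottom right, opposite to its own.

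Over the 77 pairs with both members at or above the floor, 51 had the same sign, 34 both negative and 17 both positive. The rank correlation of the partners' differences was 0.45 (Spearman) with a Pearson r of 0.26. Without AFAP1-AS1 these were 0.50 and 0.54 (76 pairs). With the floor raised to the 75th percentile 8 pairs were left and the rank correlation turned to -0.12. All points come from the same 2 arrays and share their scaling, and pairs are not replicates. In 12 of the 77 pairs the partners' differences were 1 or more apart.

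Partners were also compared by position. RefSeq starts and strands placed 529 of the 801 rows, of which 219 start within 2 kb of the sense gene's start on the opposite strand (head to head), 172 lie inside it, 123 overlap it otherwise and 15 lie apart. Of the head-to-head pairs 34 had both members at or above the floor, with a rank correlation of 0.62 and the same sign in 24. For the other 20 placed pairs the rank correlation was 0.30, with the same sign in 11. The first value was 0.56 (32 pairs) without the SRP54 and TRHDE pairs. The difference between these groups of pairs was not tested. For 48 pairs the nearest measured coding gene beside the sense gene also reached the floor. There the rank correlation with the sense gene was 0.57 for the antisense row and 0.44 for that neighbour, while Pearson's r was 0.67 for the antisense row and 0.76 for the neighbour. Without SRP54-AS1 (47 pairs) the rank values were 0.54 for the antisense row and 0.41 for the neighbour, and the Pearson values 0.41 for the antisense row and 0.51 for the neighbour. The 2 measures thus put them in opposite orders, and the difference was not tested.

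Level and start-site sequence were described by the same classes. Of the head-to-head rows 39 of 219 (17.8%) reached the floor, with 1 called higher and 6 lower. Of the rows inside the sense gene 10 of 172 (5.8%) did, with 2 called lower. Rows that overlap otherwise reached it in 24 of 123 cases (19.5%), with 1 called lower. Rows lying apart reached it in 3 of 15 cases (20%), with 0 called. Over all 801 antisense rows 1.87% were called, and over all rows with 1 symbol 9.27%. RefSeq start windows of head-to-head antisense genes had a median GC content of 64.0% (217 genes), close to the 62.7% of protein-coding genes, while other placed antisense genes had 48.7% (290 genes). The ratio of observed to expected CpG was 0.76 for head-to-head antisense genes, 0.26 for the other placed ones and 0.76 for protein-coding genes. GGGCGG stood in 54.4% of the head-to-head windows and in 21.4% of the others. Head-to-head starts lie near the sense gene's start by definition, so their windows can share bases with the sense window. The part of this in the likeness to protein-coding genes was not tested. Among the printed windows, CLDN10-AS1, which lies inside its sense gene, has TATAAA and 5 CpGs. The head-to-head LENG8-AS1, with its start 161 bases from that of LENG8, has 29 CpGs, and SRP54-AS1 and TRHDE-AS1 have 18 and 24. GABPB1-AS1 is also head to head, its start 1024 bases from that of GABPB1. Its window has 6 CpGs, a CpG ratio of 0.37 and no GGGCGG, so not every head-to-head window is rich in CpG. Antisense genes at or above the floor had a median CpG ratio of 0.73 (81 genes) and those under it 0.42 (499 genes). Among the head-to-head pairs checked, windows share bases where the antisense start lies upstream of the sense start (SRP54, SOX21, LENG8, TPT1 and LPP). They share none where it lies downstream (FBXL19, GABPB1, TRHDE and TMPO). Both follow from the placing of the windows and the distances between these starts, and say nothing more about the pairs.

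**Figure D5:**
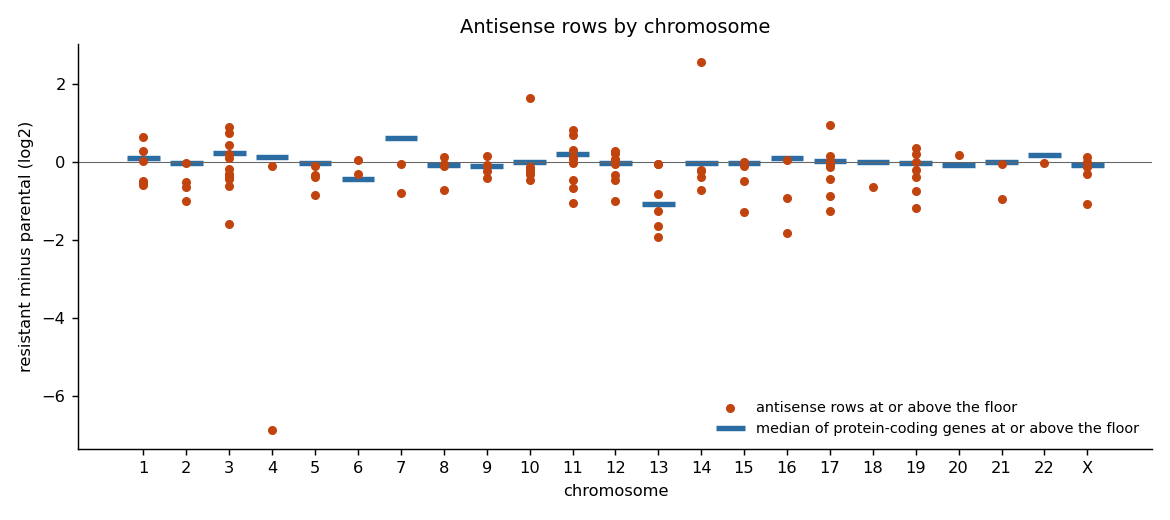
Difference (resistant minus parental, log2) of the antisense rows at or above the floor by chromosome, with a bar for the median of that chromosome's coding genes above the same floor. All 6 points on chromosome 13 lie below 0, where the coding median is -1.09, and the lowest point, on chromosome 4, is AFAP1-AS1.

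Chromosome 13 carried 66 antisense rows, of which 6 reached the floor. All 6 differences were negative, between -1.93 and -0.06 with a median of -1.05, close to the coding median of -1.09 there (164 genes). Of 48 sense genes on it, 16 were called lower and 2 higher, the higher ones being FREM2 and ENOX1. These 16 stand among 27 that reached the floor, while 53.7% of the chromosome's coding genes at or above the floor (88 of 164) were called lower. On chromosome 7, where coding genes had a median of 0.62, 2 of 32 antisense rows reached the floor and both were negative. On chromosome 14, SRP54-AS1 lies in a stretch of neighbouring genes with higher values that also holds COCH-AS1 and ARHGAP5-AS1. COCH, an inner ear matrix protein, was 6.60 on the resistant and 5.32 on the parental array, and ARHGAP5, a GTPase-activating protein, was 12.9 on the resistant and 9.46 on the parental array. ARHGAP5-AS1 was 4.80 on the resistant and 4.38 on the parental array. Of the antisense rows of this stretch SRP54-AS1 was called higher, while COCH-AS1 and ARHGAP5-AS1 stayed under the floor with differences of 1.10 and 0.42. The part of gene copy number in these differences was not tested.

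By the role of the sense gene, each list held at most 3 calls, beside 1.87% called over all 801 antisense rows. Any list with a call was above that share. Of 48 rows of known antisense RNAs 15 reached the floor, 0 were higher and 3 lower (AFAP1-AS1, BACE1-AS and SOX21-AS1), with a median of 0.00 over the rows and -0.34 over those at the floor. Among their other members at the floor were DDX11-AS1 at -0.06, FGD5-AS1 at -0.20, HIF1A-AS2 at -0.24, ZEB1-AS1 at -0.31, THUMPD3-AS1 at -0.34, TTN-AS1 at -0.53 and PCBP1-AS1 at -0.64. HIF1A, the hypoxia-inducible factor, was itself near level at 14.05 on the resistant and 13.98 on the parental array. Of 12 HOX cluster rows (median -0.07) none was called, and the 1 at the floor, HOXA-AS2, was 5.81 on the resistant and 5.86 on the parental array. The other HOX rows were under the floor.

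The median differences of the lists that follow ran from -0.01 to 0.15, beside 0.03 over all rows with 1 symbol. Their counts of called sense genes stand beside 13.4% called among all 628 sense genes. The list of cell division, microtubule and DNA repair genes had 0 calls in 15 antisense rows (median 0.00). The largest difference at the floor was that of DLGAP1-AS1 at -0.65, but DLGAP1, a synaptic scaffold gene, does not belong to this class. Of the other rows at the floor, CDKN2B-AS1 differed most, at -0.43. Of the 10 measured sense genes on the list, PRC1, which bundles spindle microtubules, and TMPO were higher and CDKN2B was lower. PRC1-AS1 was 5.45 on both arrays. Antisense RNAs of transcription factors had 1 call in 30 rows (median 0.05), SOX21-AS1, and none of 22 sense genes was called. Those of signalling genes had 0 calls in 30 rows (median 0.15), RASAL2-AS1 differing most at 5.85 on the resistant and 5.21 on the parental array. Of 24 sense genes in that list EGFR, ARHGAP5 and MAP3K14 were higher and 0 lower.

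Antisense RNAs of adhesion, matrix and cytoskeleton genes had 3 lower of 32 rows (AFAP1-AS1, CLDN10-AS1 and MYO16-AS1) and 0 higher, with a median of 0.01. CLDN10-AS1 and MYO16-AS1 lie on chromosome 13 and lost their calls after subtraction of chromosome medians. Of the 19 sense genes on this list AFAP1 and PXN, the focal adhesion protein paxillin, were higher and LOXL1 was lower. For transport, trafficking, lysosome and metabolism genes, 0 of 35 rows were called (median -0.01). ABCA9-AS1, at 7.08 on the resistant and 6.14 on the parental array, and VPS9D1-AS1, at 7.02 on the resistant and 7.95 on the parental array, came closest. Of the 34 sense genes SBF2 was higher and 6 were lower, beside 13.4% called in either direction among all 628 sense genes. The 6 were ABCC5, a drug efflux transporter (7.92 on the resistant and 9.43 on the parental array), ATP2B1, a calcium pump, CYP1B1, a cytochrome P450, SLC25A30, SLC7A11, the cystine transporter (13.5 on the resistant and 15.2 on the parental array), and STXBP5, a syntaxin-binding protein. The antisense rows of all 6 were under the floor, with differences from -0.35 to -0.02.

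Where a symbol had several antisense rows (20 symbols), the rows differed by a median of 0.23 and at most 0.89, and 8 had rows of opposite sign. HIF1A-AS2 was an example, with one row at -0.24 and another, under the floor, at 0.48. Values were identical on both arrays for 25 of the 801 rows, and the median of 0.00 rests partly on these.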

How the data were processed

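Total RNA of 1 resistant and 1 parental culture was hybridised to 2 arrays. The authors deposited 1 table of log2 values per transcript cluster. The program was Affymetrix Expression Console (per the submitters' processing notes), with algorithm, annotation version and genome build not given in the sources used here. Base 2 was assumed for the logarithm, which no source names. All data columns of the table were used (0 left unmapped).

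From the deposited log2 values, the resistant minus parental difference was computed with pandas 2.3.3 and numpy 2.4.6. There is no test, error or depth, and precision is limited by the number of arrays. Sense genes were matched by platform symbol, current symbol or unique synonym, using the row with the highest mean, and positions came from RefSeq (GRCh38.p14). Values reached 19.9 and 693 rows on the resistant and 650 on the parental array exceeded 16, so folds hold on the deposited scale. Where the lower value is under the floor, folds are given against the floor.

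Named are up to 15 called antisense rows in each direction with their sense genes, every pair called on both sides, called list members (or the largest at the floor), and every known antisense RNA at the floor; others are marked. The members and lists were chosen with earlier results of these data known. Alternatives were quantile and loess normalization, chromosome medians, other floors and thresholds, 1 row per symbol, current symbols, and sense rows of several genes. The calling step was tested on simulated data.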

Additional observations from a re-analysis of the deposited data

Results flagged for a closer look

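Outside the 801 rows, 39 rows list an antisense symbol together with another symbol, in some cases a second gene and in others an older name of the same one. Of these, 2 were higher on the resistant array by the size rule and 0 were lower, and they are given here because no comparison above uses them. The row shared by APOBEC3B, a cytidine deaminase that edits DNA, and APOBEC3B-AS1 was 12.4 on the resistant and 10.3 on the parental array, a difference of 2.12. The row listed as TMEM51-AS1 and C1orf126, an older name of the same gene, was 6.52 on the resistant and 5.18 on the parental array, a difference of 1.35.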

How the results depend on the processing

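No paired analysis was possible because each group has 1 array and no replicate number. Antisense rows called higher numbered 2 as reported, 4 without a floor, 4 less chromosome medians, 0 with the floor at the 75th percentile, 8 at a 1.5-fold and 1 at a 4-fold threshold. Rows called lower numbered 13 as reported, 3 at the 75th percentile, 27 at 1.5-fold and 1 at 4-fold. With quantile normalization 3 rows were called higher and 11 lower. Less chromosome medians, 1.75% of antisense rows were called in either direction, against 1.87% as reported. With more rows higher under that setting, fewer than 13 were lower, and the calls were less one-sided. The median of rows at the floor was -0.20 as reported, -0.12 with quantile normalization, -0.63 at the 75th percentile and 0.00 with no floor. Pairs called the same way numbered 2 as reported, 1 with quantile normalization, 1 with loess centring, 0 at the 75th percentile, 9 at 1.5-fold and 1 at 4-fold, and opposite pairs numbered 1, against 0, 2 and 0 under the last 3. Sense genes called higher numbered 44 as reported, 75 at 1.5-fold and 13 at 4-fold, and those called lower 40, 75 and 12. The rank correlation of partners was 0.45 as reported, 0.23 with no floor (722 pairs) and -0.12 at the 75th percentile (8 pairs). That relation, and the 34 to 36 negative rows at a mean of 7 or more, were chosen after seeing the data. The changes of floor and threshold alter which rows can be called, and the cause of the others was not tested. For 185 antisense rows (called, at the floor or beside a called sense gene) and their sense genes, 3453 values under these alternatives moved by less than 0.1 and 161 moved further. Of the 161, 160 followed from subtracting chromosome medians, where the shift is by construction the median of the chromosome, and 1, the sense gene CYP1B1, came from averaging its rows. The sign changed in 70 values, 61 of them after that subtraction, and in none that was called; TPT1-AS1 (-0.84 as reported) was the largest difference to turn (0.25 less chromosome medians). Of the 15 called antisense rows, 13 kept their call with quantile normalization, 14 with loess centring and 10 less chromosome medians. Under that last setting STEAP2 replaced TRHDE among the pairs called the same way. What limits every value is the single array per group and, for 690 antisense rows, a signal under the floor.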
